A study of Homo sapiens with 9 samples.

Results

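The 10 genes described here are 6 ubiquitin ligases and ligase adaptors linked to T-cell unresponsiveness (CBL, CBLB, RNF128, ITCH, NDFIP1 and PELI1) and 4 phosphatases that act on T-cell receptor signalling (UBASH3A, UBASH3B, PTPN22 and PTPN6). They were matched by gene symbol, and all 10 were found among the 19569 genes of the deposited count table. Messenger RNA had been sequenced in 9 libraries from Jurkat Clone E6-1, a cell line established from a human T-cell leukaemia. Of these, 3 came from non-activated cells (0 h), 3 from cells activated for 5 h and 3 from cells activated for 12 h. Activation used plate-bound anti-CD3 antibody (10 μg/mL for coating) together with soluble anti-CD28 antibody (5 μg/mL), which engage the T-cell receptor complex and its co-receptor. The series title places the mRNA libraries in a study of how miRNAs act on mRNA as T cells are activated. No control cultured without antibody for 5 h or 12 h is described in the labels, so activation cannot be told apart from time on the plates.

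T cells that receive receptor signals without co-stimulation can enter a state of unresponsiveness called anergy. Ubiquitin ligases enforce it by marking receptor chains, kinases and adaptors of the T-cell receptor pathway for degradation or altered trafficking. Tyrosine phosphatases lower the same signal by removing phosphate from kinases of the LCK and ZAP70 type and from their substrates. Several of the genes are themselves transcribed more when T cells are stimulated, so that they form negative feedback on the receptor.

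Library totals ran from 4222258 to 9359187 counts, with the lowest in 12 h replicate 1. Values below are CPM, counts scaled to 1e6 per library on library sizes adjusted by the TMM method. Genes were tested with edgeR's quasi-likelihood test, and "called" means a p under 0.05 after Benjamini-Hochberg adjustment over the 12036 genes tested. All 5 activation genes examined (CD69, IL2RA, IL2, EGR1 and NR4A1) were called higher at both times against 0 h, with CD69, an early surface marker of activation, at 73.2 ± 7.75 CPM at 0 h, 864 ± 49.2 CPM at 5 h and 331 ± 35.8 CPM at 12 h (SD, n = 3 each). Of 10 T-cell markers, 9 were in the table and had counts, with summed levels of 4979 to 5841 CPM at 0 h, 4779 to 5356 CPM at 5 h and 4603 to 5222 CPM at 12 h. Within that sum, 4 of the 9 were called lower and 1 higher at 5 h than at 0 h, with CD3G at 355 CPM at 5 h and 743 CPM at 0 h, CD7 at 128 and 269.9 CPM, and CD4 at 2.94 and 9.95 CPM. CD28, the target of the co-stimulating antibody, was the one called higher, and at 12 h against 0 h 3 were called lower and 1 higher. The 5 B-cell markers summed to 162 to 203 CPM at 0 h, 89.5 to 119 CPM at 5 h and 130.0 to 155 CPM at 12 h, nearly all of it CD79A. The part of these T-cell and B-cell markers in the results was not tested. The 5 myeloid markers summed to at most 12.0 CPM and the 5 epithelial and fibroblast markers to at most 7.84 CPM. Of the latter, EPCAM and COL1A2 were at 0 in all 9 libraries, and KRT8, KRT18 and COL1A1 had counts. These are bulk libraries, in which fewer cells carrying a transcript and less of it per cell cannot be told apart.

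Because the study concerns miRNAs, the 3′ UTRs of the 10 genes were searched for the sites of 5 miRNAs that T cells are known to use. A site is the complement of miRNA bases 2 to 8 (7mer-m8), or the same followed by A (8mer). The miRNAs themselves were not measured in these libraries, so a match describes the sequence and is not a shown target. The mature sequences are given from the RefSeq annotation of GRCh38.p14, with the seed (bases 2 to 8) in capitals. The 3 shown here have 3 different seeds and were picked for their known roles in T-cell receptor and NF-κB signalling.
miR-181a-5p: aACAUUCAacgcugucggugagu
miR-146a-5p: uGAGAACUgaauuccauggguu
miR-155-5p: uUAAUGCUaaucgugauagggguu

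miR-181a-5p, which tunes T-cell receptor sensitivity in mouse thymocytes and represses Ptpn22 there, had a site in 4 of the 10 genes. Over the 11944 tested genes with an annotated 3′ UTR, 21.8% had such a site. This share, like those given below for the other miRNAs, is not matched for 3′ UTR length. RNF128 is not among the tested genes. The sites of CBLB, PTPN22 and RNF128 were 8mers and that of CBL a 7mer-m8. In the order CBLB, PTPN22, RNF128 and CBL they start at base 643 of 3509, base 656 of 1165, base 565 of 1280 and base 6595 of 8368 of the longest annotated 3′ UTR. The sequences are from GENCODE 29 transcripts (GRCh38), with the matching bases in capitals.
CBLB, miR-181a-5p: tgggaaaaaccTGAATGTAtaaagcattta
PTPN22, miR-181a-5p: tgacaattattTGAATGTAacaaggaattc
RNF128, miR-181a-5p: taaaattaggcTGAATGTActtcatgtgat
CBL, miR-181a-5p: agtcccaaaaaTGAATGTcaggccccgccc

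miR-146a-5p, an NF-κB-induced miRNA that limits inflammatory signalling, had sites in CBLB, ITCH and CBL, against 13.2% of genes searched. ITCH carried 2 of them. Sites of miR-155-5p, which is raised in activated lymphocytes, lay in CBL and NDFIP1, against 12.0% of genes searched.
CBLB, miR-146a-5p: gttttttgcaaAGTTCTCAgtaattttctc
ITCH, miR-146a-5p, first site: atgcactttgaAGTTCTCtggaattaatta
ITCH, miR-146a-5p, second site: actatacacaaAGTTCTCAtcctaaatgaa
NDFIP1, miR-155-5p: ggtaaataataAGCATTAAttttttatagc
CBL, miR-155-5p: ttcagacttaaAGCATTAAgcagctagtgc
Of the other two miRNAs, miR-17-5p matched ITCH, RNF128, UBASH3A and UBASH3B (25.8% of genes searched) and miR-21-5p matched PELI1 and UBASH3B (9.94%). PTPN6, whose longest annotated 3′ UTR has 272 bases, matched none of the 5 seeds.

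Most of the 10 genes rose early. At 5 h, 7 were called higher than at 0 h and 1 was called lower. The other two were PTPN6, which did not pass, and RNF128, which was too low to test. Of all genes tested, 49.7% were called in this comparison, 24.9% higher and 24.8% lower. The median log2 fold change of the 9 tested genes was 0.68, and that over all tested genes was 0.00. At 12 h, 5 of the 10 were called higher than at 0 h and 1 lower, where 51.1% of all genes were called, 26.3% higher and 24.8% lower. The median log2 fold change of the 9 was then 0.26, against -0.00 over all genes. Both comparisons share the 0 h libraries. At 12 h against 5 h, 4 of the 10 were called lower and 0 higher, where 36% of all genes were called, 18.1% higher and 17.9% lower. Another scaling of the libraries, by the upper quartile, changed the 5 h split over all genes to 2412 higher and 3622 lower, against 3001 higher and 2984 lower as reported. At 12 h against 0 h it gave 2745 higher and 3547 lower, against 3161 higher and 2985 lower.

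**Figure D1:**
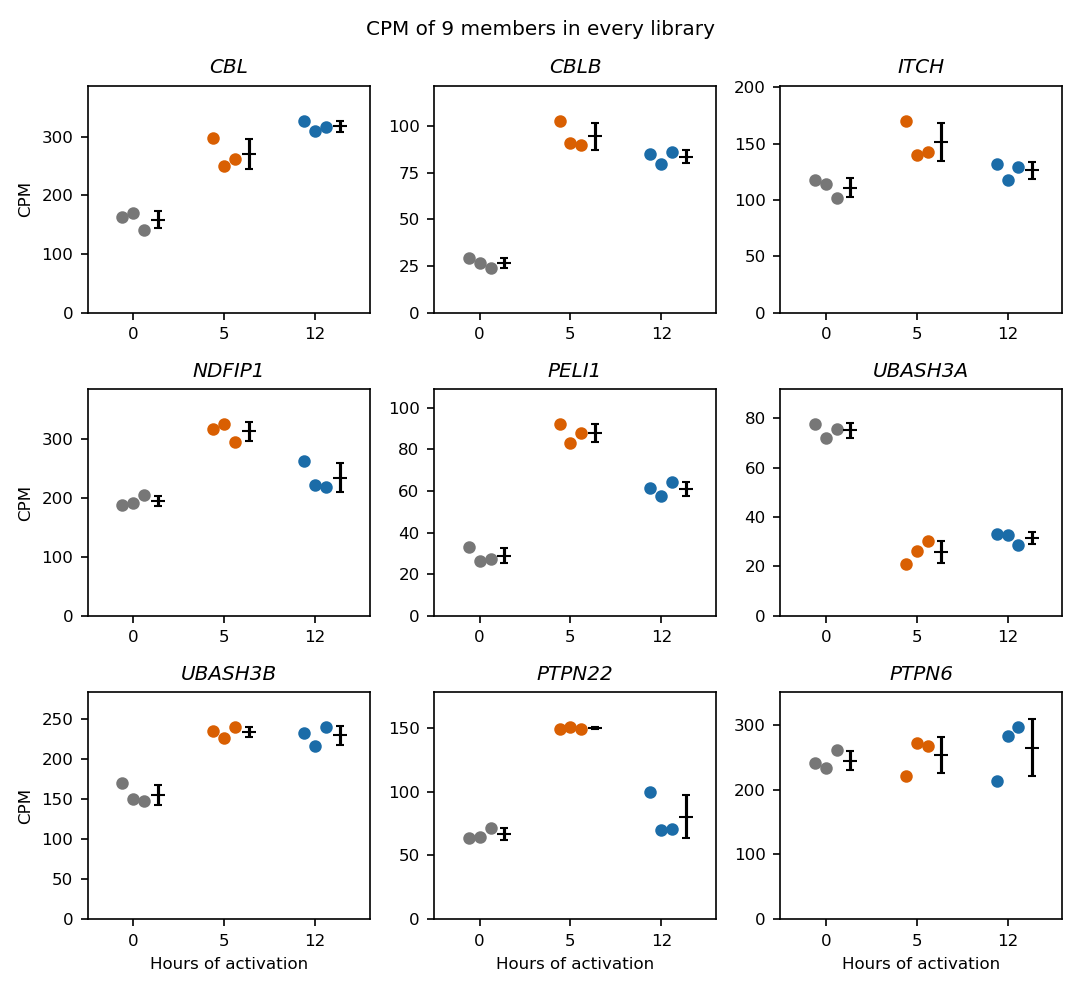
CPM of 9 of the 10 genes (vertical axes, each from 0) in every library at 0, 5 and 12 h of activation; points are libraries, and the black marks beside them are the mean ± SD (n = 3). CBLB and PELI1 at 5 h lie between 83.1 and 103 CPM and at 0 h between 23.8 and 32.9 CPM, UBASH3A moves the other way, and the PTPN6 libraries of the 3 times overlap; RNF128, with 1 count in all, is not drawn.

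CBLB, the RING-finger ligase whose loss lets mouse T cells respond without CD28, had the largest rise of the 10 genes at both times. The gene lies on the minus strand at chr3:105655461-105869552 (GENCODE 29, GRCh38, as for the loci below). It was at 29.5, 26.6 and 23.8 CPM at 0 h, 103, 91.1 and 89.8 CPM at 5 h, and 85.1, 79.6 and 86.2 CPM at 12 h. Every activated library was above every 0 h library, and the 5 h libraries were all above the 12 h libraries by a small margin. CBLB was 3.56-fold higher at 5 h than at 0 h (log2 1.83, SE 0.11, edgeR adjusted p = 9.22e-12), and 2.34% of tested genes had a higher log2 fold change. At 12 h it was 3.14-fold higher than at 0 h (log2 1.65, SE 0.11, edgeR adjusted p = 8.96e-11). The difference at 12 h against 5 h did not pass (log2 -0.18, SE 0.10, edgeR adjusted p = 0.154).

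CBL, the related ligase that ubiquitylates receptor tyrosine kinases and the T-cell receptor zeta chain, rose at both times, with a smaller fold than CBLB. It lies on the plus strand at chr11:119206276-119313926. Its levels were 163, 169.9 and 142 CPM at 0 h, 299, 250.2 and 262 CPM at 5 h, and 328, 309.6 and 317 CPM at 12 h. The 3 groups did not overlap and stood in the order of time. CBL was 1.71-fold higher at 5 h than at 0 h (log2 0.77, SE 0.09, edgeR adjusted p = 8.24e-07) and 2.01-fold higher at 12 h than at 0 h (log2 1.01, SE 0.09, edgeR adjusted p = 2.14e-08). Between 12 h and 5 h the log2 difference of 0.23 (SE 0.09) missed the threshold by little (edgeR adjusted p = 0.0527). It passed in 6 of 16 alternatives, which were upper-quartile scaling (adjusted p = 0.0352), DESeq2 (0.0417), limma with the log2 table (0.0499), and the fits without 0 h replicate 1 (log2 0.25), 0 h replicate 3 (0.23) or 5 h replicate 1 (0.31). CBL shares 509 exonic bases with MCAM on the opposite strand, and MCAM had 403 counts over all 9 libraries, against at least 1138 for CBL in each.

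Within a library, the count of CBLB relative to CBL needs no scaling of library sizes. CBLB had 0.345, 0.364 and 0.343 counts per CBL count at 5 h, against 0.181, 0.157 and 0.168 at 0 h. At 12 h the ratios were 0.260, 0.257 and 0.272. The log2 ratio was higher by 1.06 at 5 h than at 0 h (-1.51 ± 0.05 at 5 h and -2.57 ± 0.10 at 0 h, SD, n = 3 each) and by 0.64 at 12 h (-1.93 ± 0.04), with no overlap between the activated and the 0 h libraries in either case. The exact two-sided permutation p was 0.1 for both, which is the smallest that 3 libraries against 3 can give, and 0.16 after adjustment over the 8 ratio tests made. The transcripts differ in length, so the change of the ratio can be read and its size cannot.

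The RefSeq promoter at the CBLB start that GENCODE transcripts also use is shown because CBLB rose most. It is the 250 bases before the start, chr3:105869013-105869262 on the minus strand of GRCh38.p14. Capitals mark matches to 6 motifs searched on both strands, which are AP-1 (TGANTCA), NF-κB, NFAT core (TGGAAA), EGR (GCGNGGGCG), cAMP response element (TGACGTCA) and GC box (GGGCGG).
CBLB promoter: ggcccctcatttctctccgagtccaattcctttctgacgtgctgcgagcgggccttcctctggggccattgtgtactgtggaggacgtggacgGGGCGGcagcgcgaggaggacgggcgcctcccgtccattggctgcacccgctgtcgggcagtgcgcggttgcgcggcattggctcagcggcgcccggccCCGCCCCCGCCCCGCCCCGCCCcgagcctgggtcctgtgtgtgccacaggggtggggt
The window held 1 EGR match, 57 bases before the start, which overlaps 2 of its 5 GC boxes. It had 26 CpG dinucleotides, where the median of 35116 RefSeq promoters was 11. An EGR match was present in 8.41% of those promoters and a GC box in 42.6%. The letters of the AP-1, NF-κB (in the stricter form described below), NFAT and cAMP response element motifs are not in this window.

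RNF128, also known as GRAIL, is a membrane-bound RING ligase that is raised in anergic mouse T cells. It lies on the plus strand at chrX:106693794-106796993. Its count was 0 in 8 of the 9 libraries and 1 in 5 h replicate 2. A count of 0 over the 3 libraries of a group allows up to 3 counts, or 0.139 CPM at 0 h and 0.147 CPM at 12 h (counting error only). RNF128 was therefore at the limit of detection at this depth, and no fold was computed.

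ITCH, a HECT-domain ligase that marks JUNB and PLC-γ1 for degradation, showed the smallest called rise at 5 h. It lies on the plus strand at chr20:34363235-34511393. Its levels were 118, 114 and 102 CPM at 0 h, 171, 140.2 and 143 CPM at 5 h, and 132, 118 and 129 CPM at 12 h. The 5 h libraries were above all others, and the lowest 12 h library barely exceeded the highest 0 h library. ITCH was 1.36-fold higher at 5 h than at 0 h (log2 0.45, SE 0.10, edgeR adjusted p = 0.000662). The log2 difference between 12 h and 0 h, 0.19 with an SE of 0.10, did not pass (edgeR adjusted p = 0.116). At 12 h against 5 h it was called lower (log2 -0.26, SE 0.10, edgeR adjusted p = 0.0407), a call lost in 8 of 16 alternatives. Those were upper-quartile scaling (-0.24), the fit of the 6 libraries alone (-0.25), and the fits without 0 h replicate 1 (-0.25), 0 h replicate 2 (-0.25), 5 h replicate 1 (-0.17), 5 h replicate 3 (-0.30), 12 h replicate 2 (-0.21) or 12 h replicate 3 (-0.27). The adjusted p over all 16 alternatives ranged from 0.0307 to 0.241.

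NDFIP1, the membrane adaptor that recruits and activates ITCH and other NEDD4-family ligases, rose at 5 h and stood between the other groups at 12 h. The locus is chr5:142108505-142154443 on the plus strand. NDFIP1 was at 189, 193 and 205 CPM at 0 h, 318, 327 and 296 CPM at 5 h, and 263, 222 and 219 CPM at 12 h. The 3 groups did not overlap, with 5 h highest and 12 h between. NDFIP1 was 1.60-fold higher at 5 h than at 0 h (log2 0.68, SE 0.09, edgeR adjusted p = 2.77e-06). It was 1.20-fold higher at 12 h than at 0 h (log2 0.26, SE 0.09, edgeR adjusted p = 0.0216) and lower at 12 h than at 5 h (log2 -0.42, SE 0.09, edgeR adjusted p = 0.00116). The 12 h call against 0 h was lost with upper-quartile scaling (log2 0.19) and without 0 h replicate 1 (0.24), 0 h replicate 2 (0.25) or 12 h replicate 1 (0.17), and the adjusted p over 16 alternatives ranged from 0.0129 to 0.111. NDFIP1 had 1.86, 2.33 and 2.07 counts per ITCH count at 5 h, against 1.60, 1.69 and 2.02 at 0 h, and these libraries overlap. The log2 ratio differed by 0.24 at 5 h (exact permutation p = 0.2, adjusted over 8 tests 0.267) and by 0.07 at 12 h (p = 0.7, adjusted 0.8).

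PELI1, a Pellino ligase that targets the NF-κB subunit REL in mouse T cells, rose nearly as much as CBLB at 5 h. It lies on the minus strand at chr2:64092652-64144454. PELI1 was at 32.9, 26.1 and 27.3 CPM at 0 h, 92.2, 83.1 and 87.9 CPM at 5 h, and 61.4, 57.6 and 64.2 CPM at 12 h. The 3 groups were apart from each other, with 12 h between. PELI1 was 3.05-fold higher at 5 h than at 0 h (log2 1.60, SE 0.11, edgeR adjusted p = 9.59e-11), and 2.81% of tested genes had a higher log2 fold change. At 12 h it was 2.12-fold higher than at 0 h (log2 1.08, SE 0.11, edgeR adjusted p = 6.95e-08) and lower than at 5 h (log2 -0.52, SE 0.10, edgeR adjusted p = 0.00049). Its RefSeq promoter, chr2:64144421-64144670 on the minus strand of GRCh38.p14, is shown beside that of CBLB because both genes rose at least 3-fold at 5 h.
PELI1 promoter: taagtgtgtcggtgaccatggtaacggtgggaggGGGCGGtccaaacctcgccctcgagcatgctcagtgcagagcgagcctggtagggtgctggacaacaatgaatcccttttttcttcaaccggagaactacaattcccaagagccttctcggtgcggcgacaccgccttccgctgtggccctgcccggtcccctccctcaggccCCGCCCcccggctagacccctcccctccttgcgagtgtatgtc
The only matches to the 6 motifs in this window were 2 GC boxes, 216 and 43 bases before the start, and it had 16 CpG dinucleotides.

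**Figure D2:**
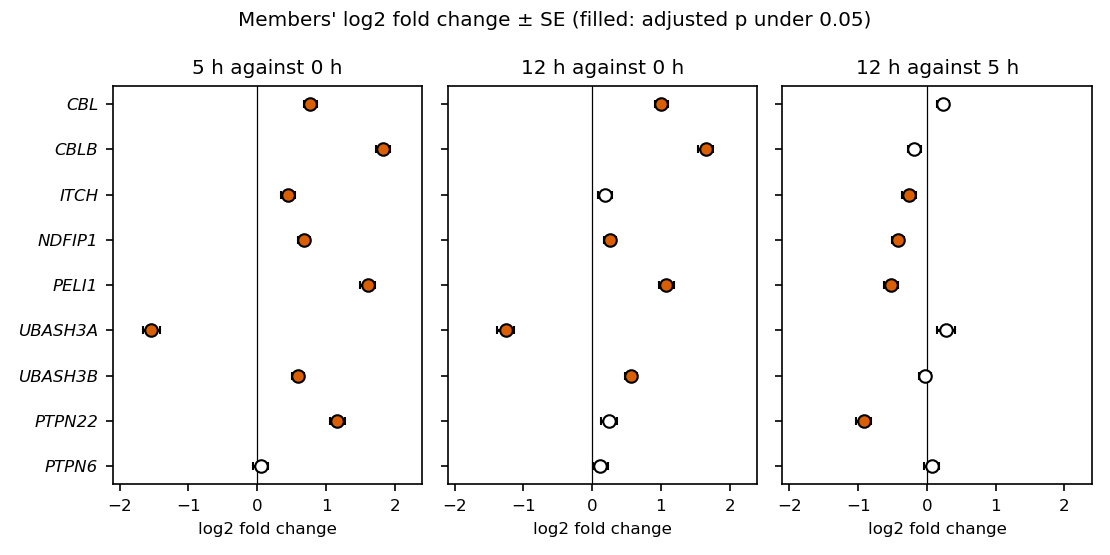
Log2 fold change ± SE (horizontal axes) of the 9 tested genes (vertical axis) at 5 h against 0 h, 12 h against 0 h and 12 h against 5 h; filled points had an edgeR adjusted p under 0.05. UBASH3A has the only called fall against 0 h (-1.54 at 5 h and -1.26 at 12 h), and the called points at 12 h against 5 h lie between -0.92 and -0.26.

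The pair of UBASH3 phosphatases moved in opposite directions. UBASH3A (also STS-2 or TULA) and UBASH3B (STS-1) are related proteins with a ubiquitin-binding and a histidine-phosphatase domain. UBASH3B is the stronger phosphatase of the pair and dephosphorylates ZAP70 and SYK. UBASH3A is largely restricted to lymphocytes.

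UBASH3A lies on the plus strand at chr21:42403447-42447681. It was at 77.8, 71.8 and 75.7 CPM at 0 h, 21.2, 26.2 and 30.2 CPM at 5 h, and 33.2, 32.6 and 28.7 CPM at 12 h. Every activated library was at or below 33.2 CPM and every 0 h library at or above 71.8 CPM, while the 5 h and 12 h libraries overlapped. UBASH3A fell by 1.54 on the log2 scale at 5 h (0.344 of the 0 h level, SE 0.12, edgeR adjusted p = 1.21e-09), and 2.30% of tested genes had a lower log2 fold change. At 12 h it fell by 1.26 relative to 0 h (0.419 of the 0 h level, SE 0.12, edgeR adjusted p = 2.51e-08). At 12 h against 5 h the log2 difference of 0.28 (SE 0.13) did not pass (edgeR adjusted p = 0.0925), and it passed without 5 h replicate 3 (0.40, adjusted p = 0.0363).

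UBASH3B lies on the plus strand at chr11:122655675-122814473. Its levels were 169.8, 149.6 and 147 CPM at 0 h, 235, 227 and 239 CPM at 5 h, and 232, 216 and 239.9 CPM at 12 h. All 6 activated libraries were above the 0 h libraries and mixed among themselves. UBASH3B was 1.5-fold higher at 5 h than at 0 h (log2 0.59, SE 0.09, edgeR adjusted p = 1.08e-05) and 1.48-fold higher at 12 h than at 0 h (log2 0.56, SE 0.09, edgeR adjusted p = 2e-05). Between 12 h and 5 h the log2 difference was -0.03 with an SE of 0.09 (edgeR adjusted p = 0.826).

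Inside each library, UBASH3B had 11.1, 8.64 and 7.91 counts per UBASH3A count at 5 h, against 2.18, 2.08 and 1.94 at 0 h. At 12 h it had 6.98, 6.63 and 8.34. No activated library overlapped a 0 h library. The log2 ratio was higher by 2.14 at 5 h than at 0 h (3.19 ± 0.25 at 5 h and 1.05 ± 0.08 at 0 h, SD, n = 3 each) and by 1.82 at 12 h (2.86 ± 0.17), a 4.41-fold and a 3.52-fold change of the ratio. Each had an exact permutation p of 0.1, the smallest possible, and 0.16 after adjustment over the 8 ratio tests.

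**Figure D3:**
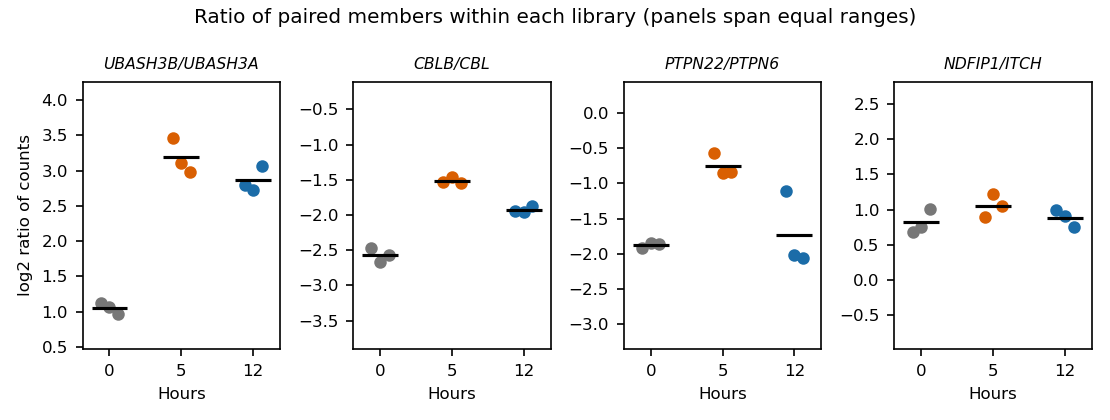
Log2 ratio of the counts of 2 genes within each library (vertical axes, equal ranges), by hours of activation; points are libraries and bars are means of 3. The UBASH3B to UBASH3A ratio has the widest gap, between 2.73 and 3.47 in activated libraries and between 0.96 and 1.13 at 0 h, and 12 h replicate 1 stands above the other 12 h libraries in PTPN22 to PTPN6.

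PTPN22 (LYP), which dephosphorylates LCK and ZAP70 in complex with CSK, rose at 5 h and stood lower at 12 h. Its locus is on the minus strand at chr1:113813811-113871759. PTPN22 was at 63.6, 64.6 and 71.8 CPM at 0 h, 149, 151 and 149 CPM at 5 h, and 99.7, 69.9 and 70.8 CPM at 12 h. The 5 h libraries were far above all others, and those of 12 h overlapped those of 0 h. PTPN22 was 2.24-fold higher at 5 h than at 0 h (log2 1.17, SE 0.11, edgeR adjusted p = 3.05e-08). It was lower at 12 h than at 5 h (log2 -0.92, SE 0.11, edgeR adjusted p = 3.12e-06), and 3.15% of tested genes had a lower log2 fold change there. The log2 difference of 0.25 between 12 h and 0 h (SE 0.12) did not pass (edgeR adjusted p = 0.0808). That value turned on 12 h replicate 1, and was 0.07 without it (adjusted p = 0.554), 0.34 without 12 h replicate 2 (0.0297) and 0.33 without 12 h replicate 3 (0.0432).

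The PTPN22 promoter, chr1:113871713-113871962 on the minus strand of GRCh38.p14 (RefSeq), is shown because it differs in base composition from that of CBLB.
PTPN22 promoter: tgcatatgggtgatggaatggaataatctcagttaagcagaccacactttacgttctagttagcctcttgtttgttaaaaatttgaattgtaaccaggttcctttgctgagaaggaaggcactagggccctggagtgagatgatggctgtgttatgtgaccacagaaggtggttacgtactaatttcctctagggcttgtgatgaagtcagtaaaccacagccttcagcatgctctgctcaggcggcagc
Its G+C content was 45.6%, against 72.0% for the CBLB window, with 3 CpG dinucleotides against 26. It held no match to the 6 motifs. RefSeq promoters were matched for 8 of the 10 genes, all but CBL and UBASH3A. Of the 14 starts of these 8 genes, an EGR match was found before 1 (CBLB) and an NFAT core before 1 (RNF128), and an NFAT core was present in 18.0% of all promoters. AP-1 (6.57% of all promoters), NF-κB (1.26%) and cAMP response element (1.65%) matches were found before none of the 14. For NF-κB this holds only for a pattern made stricter after its matches were counted, and the earlier count is not given here. It cannot show that these starts lack NF-κB sites under a wider pattern.

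PTPN6 (SHP-1), the SH2-domain tyrosine phosphatase recruited by inhibitory receptors, was not called in any of the 3 comparisons. Its locus is on the plus strand at chr12:6946468-6961316. Its levels were 241, 233 and 261 CPM at 0 h, 221, 272 and 267 CPM at 5 h, and 214, 283 and 297 CPM at 12 h. The 3 groups overlapped, and replicate 1 was the lowest library of both activated groups. The log2 differences were 0.05 at 5 h against 0 h (edgeR adjusted p = 0.73), 0.12 at 12 h against 0 h (0.389) and 0.07 at 12 h against 5 h (0.673), each with an SE of 0.11. Without 12 h replicate 1, the difference at 12 h against 0 h was 0.24 and passed (edgeR adjusted p = 0.0456). The first difference turned to -0.036 with upper-quartile scaling and to -0.011 without 5 h replicate 2, and the third to -0.023 without 5 h replicate 1 and to -0.016 without 12 h replicate 3.

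PTPN22 relative to PTPN6 was 0.675, 0.554 and 0.558 counts per count at 5 h, against 0.264, 0.278 and 0.276 at 0 h, without overlap. The log2 ratio was higher by 1.12 at 5 h than at 0 h (exact permutation p = 0.1, adjusted over 8 tests 0.16). At 12 h the ratios were 0.467, 0.247 and 0.239, with replicate 1 above and the other two below all 0 h libraries. The difference at 12 h was 0.15 (exact permutation p = 1.0) and turned to -0.17 without 12 h replicate 1. That library was also the highest of its group for NDFIP1, CBL, ITCH and UBASH3A and the lowest for PTPN6. For CBLB, PELI1 and UBASH3B it lay between the others of its group. Its total of 4222258 counts was the smallest. The part of depth in this was not tested.

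The levels can be compared between genes only per length of transcript, here as CPM per kb of annotated exon. At 0 h the order was PTPN6 (48.8 ± 2.89), NDFIP1 (32.5 ± 1.40), UBASH3A (19.2 ± 0.77), UBASH3B (17.3 ± 1.38), ITCH (16.7 ± 1.29), PTPN22 (14.8 ± 0.99), CBL (13.5 ± 1.25), PELI1 (6.98 ± 0.88), CBLB (2.17 ± 0.23) and RNF128 at 0. Neighbours from UBASH3A down to CBL overlapped between libraries, and the other neighbours did not. At 5 h NDFIP1 (52.1 ± 2.64 CPM per kb) and PTPN6 (50.6 ± 5.56) overlapped at the top, and PTPN22 (33.2 ± 0.21) was next and apart from both. UBASH3B, CBL, ITCH and PELI1 followed between 26.0 and 21.3 CPM per kb on average, each overlapping its neighbour, and CBLB (7.71 ± 0.59) overlapped UBASH3A (6.6 ± 1.16) below them. At 12 h PTPN6 (52.8 ± 8.87 CPM per kb) and NDFIP1 (39.0 ± 4.04) overlapped, as did CBL (27.1 ± 0.78) and UBASH3B (25.5 ± 1.34), then ITCH, PTPN22 and PELI1 from 19.0 to 14.8 CPM per kb. UBASH3A (8.04 ± 0.62) and CBLB (6.82 ± 0.29) were last and apart. UBASH3A, the third of the 10 genes at 0 h, was thus ninth at 5 h and eighth at 12 h. The order depends in part on the length used, and with the longest transcript 21 of the 27 levels moved by more than their SD. PTPN6 was then at 101, 105 and 109.7 CPM per kb at 0, 5 and 12 h and had the highest mean at each time, ahead of NDFIP1 at 47.0, 75.3 and 56.4. CBLB was at 3.92, 13.96 and 12.3 CPM per kb, so that its mean at 12 h was above that of UBASH3A (11.4), which was then ninth at both 5 h and 12 h. On that length the mean of UBASH3B was also above that of CBL at 12 h, and that of PTPN22 above that of ITCH at 0 h and 12 h.

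**Figure D4:**
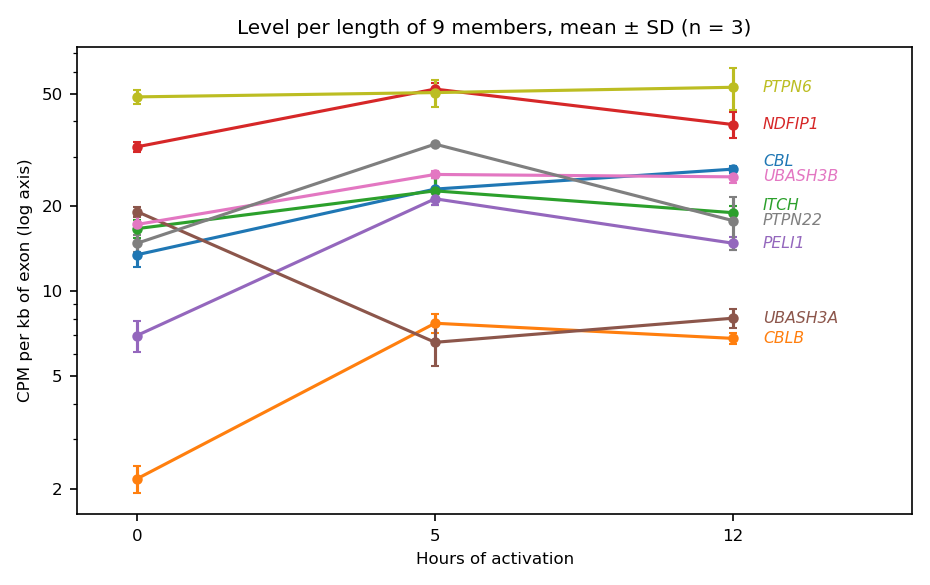
Level per length of 9 genes, in CPM per kb of annotated exon (vertical log axis), at 0, 5 and 12 h of activation; points are means and error bars are SD (n = 3). PTPN6 and NDFIP1 are the top lines at each time, CBLB (2.17 at 0 h and 7.71 at 5 h) and PELI1 climb, and UBASH3A crosses downward, at 6.6 at 5 h and 19.2 at 0 h.

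For the 3 genes with the widest range of group means, the genes with the most similar course over the 9 libraries were found by the root mean square difference of log2 CPM, each gene centred on its 0 h mean. NCOA2 (0.0713) and SIPA1L1 (0.129) were among the genes closest to CBLB. BTG1 (0.0511), an antiproliferative factor, was the closest gene to PELI1, followed by WNK1 (0.0990) and ASAP1 (0.101). For UBASH3A they were BCL7A (0.133), TIMP2 (0.144) and ANO10 (0.146). BTG1 averaged 45.5 CPM at 0 h, 137 CPM at 5 h and 95.5 CPM at 12 h.

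Close relatives of the ligases moved in both directions. Of 21 relatives and adaptors, 15 were tested, and 6 were called higher and 4 lower at 5 h than at 0 h, with a median log2 fold change of 0.06 (0.00 over all genes tested). Over all genes tested, 24.9% were called higher and 24.8% lower at 5 h than at 0 h. The shares at 12 h against 0 h were 26.3% and 24.8%. These shares also stand beside the counts of the lists below. NDFIP2, the paralog of NDFIP1, was at 73.6 ± 1.07 CPM at 5 h and 28.0 ± 2.35 CPM at 0 h (SD, n = 3 each; log2 1.39, edgeR adjusted p = 6.89e-10). RNF149 (log2 0.61) and NEDD4 (0.46), a HECT ligase of the ITCH family, also rose, and RNF167 (-0.73), SMURF2 (-0.70) and PELI2 (-0.53), a paralog of PELI1, fell. The counts at 12 h against 0 h were 3 higher and 4 lower (median -0.01), and NEDD4 was then on the lower side (-0.44), with SMURF2 (-1.0) and RNF167 (-0.33). NDFIP2 (1.08), RNF149 (0.52) and RNF150 (0.30) were the 3 called higher. NEDD4 averaged 43.6 CPM at 0 h, 60.1 CPM at 5 h and 32.5 CPM at 12 h.

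The next list held 15 other ubiquitin ligases and ligase subunits, and a role in T-cell tolerance is not established for each. All were tested, and 6 were called higher and 2 lower at 5 h than at 0 h (median log2 fold change 0.00). Among all genes tested, 24.9% were called higher and 24.8% lower there. RNF19A was at 319 ± 13.7 CPM at 5 h and 38.7 ± 0.93 CPM at 0 h (log2 3.05, edgeR adjusted p = 6.19e-16). SOCS1, which inhibits cytokine receptor kinases, was at 38.1 ± 3.52 CPM at 5 h and 4.66 ± 0.08 CPM at 0 h (log2 3.03, edgeR adjusted p = 7.57e-13). Those called lower were DTX1, a Deltex ligase known to promote anergy in mouse T cells, at 56.9 ± 4.85 CPM at 5 h and 234 ± 12.0 CPM at 0 h (log2 -2.04, edgeR adjusted p = 4.49e-12), and RNF125 (-1.10). KLHL6 (0.49) was the third of those that rose most. Against 0 h, 5 were higher and 3 lower at 12 h (median 0.19), with RNF19A (1.38), SOCS1 (0.99) and KLHL6 (0.95) rising most, and DTX1 (-1.9), RNF125 (-1.19) and TRAF3 (-0.30) called lower.

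The 12 deubiquitinases, which reverse ligase action, were mostly higher at 5 h than at 0 h, with 9 called higher and 1 lower and a median log2 fold change of 0.42. Over all genes tested, 24.9% were called higher and 24.8% lower, with a median of 0.00. TNFAIP3, also called A20 and itself a target of NF-κB, was at 815 ± 33.6 CPM at 5 h and 114 ± 4.64 CPM at 0 h (log2 2.84, edgeR adjusted p = 3.12e-16). USP15 (log2 0.98) and USP4 (0.88) rose, and USP18 (-0.51), an interferon-induced enzyme, fell. At 12 h against 0 h, 5 were higher, led by TNFAIP3 (2.39), USP4 (1.13) and OTUB1 (0.70), and USP18 (-0.96) was lower (median 0.24). Relative to 5 h, 1 was higher and 8 lower at 12 h (median -0.41), where 18.1% of all genes were called higher and 17.9% lower.

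Among 19 other tyrosine phosphatases and their partners, 18 were tested, of which 9 were called higher and 5 lower at 5 h than at 0 h (median log2 fold change 0.26). The shares over all genes tested were 24.9% higher and 24.8% lower. PTPN3 was at 84.1 ± 7.0 CPM at 5 h and 19.97 ± 2.03 CPM at 0 h (log2 2.07, edgeR adjusted p = 2.71e-12). DUSP22 (1.09), which inactivates LCK, and PTPN7 (1.05), a MAP kinase phosphatase of blood cells, also rose. PTPRCAP (-1.57), which binds CD45, PTPN18 (-1.03) and PTPRK (-0.34) fell. The 12 h libraries had 8 higher and 4 lower than at 0 h (median 0.15). By fold, PTPRJ (1.24), PTPN3 (1.13) and PTPN23 (0.83) rose most, and PTPN12 (-1.01), PTPRCAP (-0.98) and PTPN9 (-0.73) fell most. PTPRJ was at a low level with a wide spread, at 18.8 ± 6.4 CPM at 12 h and 7.6 ± 1.6 CPM at 0 h. PTPN12 was also low, at 4.19 ± 1.42 CPM at 12 h and 8.02 ± 0.47 CPM at 0 h.

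The 34 targets and partners of the 10 genes were split, with 12 called higher and 10 lower at 5 h than at 0 h (median log2 fold change 0.10). For all genes tested the shares were 24.9% higher and 24.8% lower. REL, the NF-κB subunit that PELI1 targets in mouse, was at 1185 ± 144 CPM at 5 h and 196 ± 22.5 CPM at 0 h (log2 2.6, edgeR adjusted p = 3.26e-13). LCP2, the adaptor SLP-76, was at 923 ± 6.01 CPM at 5 h and 210.2 ± 2.21 CPM at 0 h (log2 2.13). JUNB (1.79), a target of ITCH, rose. LAIR1, an inhibitory receptor that binds SHP-1, was at 35.7 ± 2.32 CPM at 5 h and 187 ± 10.6 CPM at 0 h (log2 -2.39, edgeR adjusted p = 6.03e-14). PSTPIP1 (-1.26) and SYK (-1.22), a kinase that UBASH3B dephosphorylates, fell. For 12 h against 0 h, 11 were higher and 8 lower (median 0.08), with LCP2 (2.08), CD5 (1.40) and REL (1.17) rising most and LAIR1 (-1.76), SYK (-0.97) and PAG1 (-0.58) falling most.

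Of 17 anergy genes other than ligases, 15 were tested, and 10 were called higher and 0 lower at 5 h than at 0 h (median log2 fold change 1.45). Over all genes tested, 24.9% were called higher and 24.8% lower. The untested LAG3 and CTLA4 had group means of at most 0.0832 and 0.744 CPM. The activated cells also received anti-CD28. Whether they were anergic was not tested, and the count of genes called higher cannot tell anergy from activation. EGR2, a transcription factor that drives CBLB in mouse T cells, was at 72.5 ± 1.75 CPM at 5 h and 0.401 ± 0.14 CPM at 0 h (log2 7.45, edgeR adjusted p = 6.51e-17). EGR3 was at 151 ± 15 CPM at 5 h and 1.51 ± 0.70 CPM at 0 h (log2 6.6), and PDCD1, the inhibitory receptor PD-1, at 30.8 ± 9.95 CPM at 5 h and 2.47 ± 0.60 CPM at 0 h (3.64). At 12 h against 0 h, 11 were higher, led by EGR2 (5.28), EGR3 (3.65) and NT5E (2.78), and SIRT1 (-0.80) and IKZF1 (-0.27) were lower (median 0.77). Relative to 5 h, 2 were higher and 8 lower at 12 h (median -0.40), where 18.1% of all genes were called higher and 17.9% lower. In that comparison, 3 ligase relatives were called higher and 4 lower (median -0.11). The other ligases and ligase subunits had 5 higher and 3 lower (median 0.02). The other tyrosine phosphatases had 3 higher and 6 lower (median -0.04), and the targets and partners 7 higher and 9 lower (median -0.01).

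**Figure D5:**
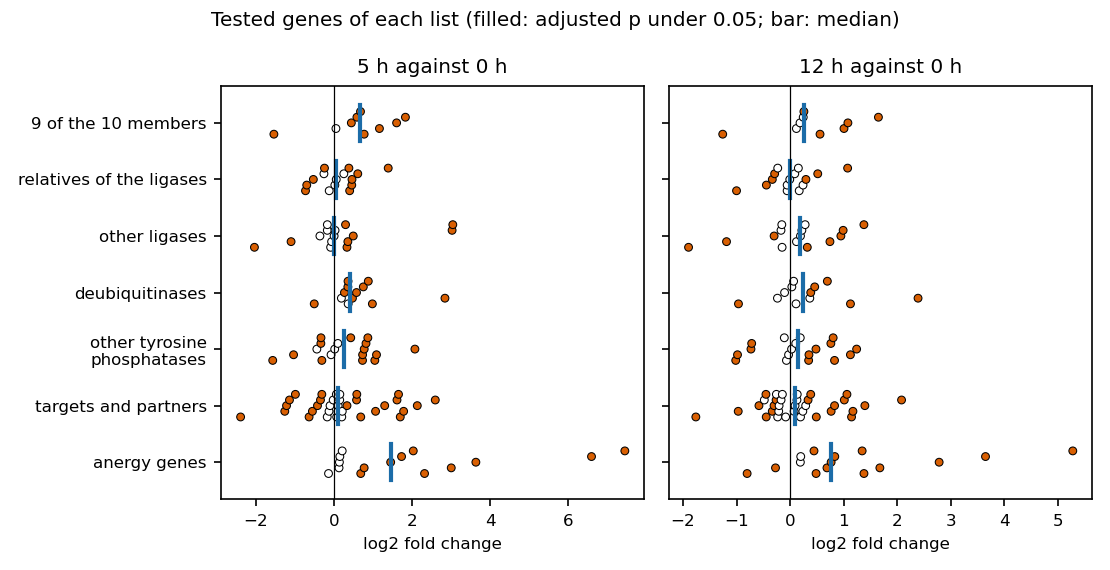
Log2 fold change (horizontal axes) of every tested gene of 7 lists (vertical axis) at 5 h and 12 h against 0 h; filled points had an edgeR adjusted p under 0.05, and blue bars are list medians. The 10 genes have medians of 0.68 and 0.26 over the 9 tested, ligase relatives lie around 0, and anergy genes other than ligases have medians of 1.45 and 0.77.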

How the data were processed

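The authors deposited whole-number counts per Ensembl gene for 9 libraries and a table of log2 values. Per the submitters' processing notes, cutadapt, RSEM, DESeq2 and the build GRCh38.p13 were used. Since RSEM estimates counts, the whole numbers may be rounded estimates. Roles, versions, annotation release and strand setting were not given in the sources used, and without strand a gene and its antisense partner cannot be told apart. All 114228 deposited log2 values equal log2(count / library factor + 1) within 0.001. They cover the 12692 genes with a count in all 9 libraries and were used only in an alternative.

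Libraries were grouped by their labels. The design text calls the 3 libraries of a group biological replicates but names no culture, batch or date. The p-values thus cover the spread between those libraries alone, and it may be technical. Chi-square per degree of freedom between replicates was 2.87 to 8.92, so libraries of a group differed by more than counting noise. This cannot tell separate cultures from repeated preparations of 1 sample. The test was that of edgeR 4.0.16 on R 4.3.3 (TMM, filterByExpr, 1 quasi-likelihood fit of all 9 libraries, common biological coefficient of variation 0.0887). DESeq2 1.42.0 and limma 3.58.1 were alternatives. Ratios added 0.5 to each count and used an exact permutation test (scipy 1.17.1). Coordinates and lengths are from GENCODE 29 (GRCh38).

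The 10 genes and the lists were chosen with earlier results of these data known. The text names all 10, at most the 3 called genes that moved most in each direction per list at 5 h and at 12 h against 0 h (genes of the lists are given only as counts for 12 h against 5 h), and the 3 genes most like each of 3 members, except that 1 of these genes is not reported here. Motifs and miRNAs were chosen after the files were seen, and the NF-κB motif was made stricter after its matches were counted. The fit was checked on simulated data with 50 genes changed by each of 4 folds at 5 h against 0 h. It called 74% of those changed 1.5-fold, 90% at 2-fold, 100% at 4-fold and 84% at 0.5-fold. Of 11752 unchanged genes, 11 were called. Changes smaller than 1.5-fold were not simulated.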

Additional observations from a re-analysis of the deposited data

Results flagged for a closer look

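For 4 genes the response at 12 h differed from that at 5 h, by the edgeR contrast of 12 h against 5 h, in which 36% of all genes tested were called. PTPN22 was lower at 12 h by a log2 difference of -0.92 (adjusted p = 3.12e-06), PELI1 by -0.52 (0.00049), NDFIP1 by -0.42 (0.00116) and ITCH by -0.26 (0.0407). All 3 libraries of 12 h were below all 3 of 5 h for each of these genes. The same libraries gave the calls, so this is no separate support. CBL and CBLB did not overlap between these times either, and were not called. The call for ITCH was lost in 8 of 16 alternatives, and those for the other three held in all 16.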

How the results depend on the processing

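Of 432 fold changes of the tested genes under 16 other settings each, 405 kept their direction and side of the threshold, 12 lost their call, 10 gained one and 5 changed sign. The sign changes were PTPN6 at 5 h against 0 h (-0.036 with upper-quartile scaling, -0.011 without 5 h replicate 2), PTPN6 at 12 h against 5 h (-0.023 without 5 h replicate 1, -0.016 without 12 h replicate 3) and UBASH3B at 12 h against 5 h (0.018 without 12 h replicate 2), none of which passed in either form. Leaving out 1 library gave these 3 values ranges of -0.011 to 0.139, -0.023 to 0.19 and -0.057 to 0.018. The cause was not tested. The number of members called was 8 in every alternative at 5 h against 0 h, 5 to 7 at 12 h against 0 h and 3 to 5 at 12 h against 5 h. Leaving out 1 library gave 5140 to 6306 calls over all genes at 5 h against 0 h, 5517 to 6286 at 12 h against 0 h and 3284 to 4392 at 12 h against 5 h. It gave log2 ratio differences of 2.0 to 2.24 (5 h) and 1.72 to 1.88 (12 h) for UBASH3B to UBASH3A, 1.01 to 1.11 and 0.59 to 0.70 for CBLB to CBL, 1.03 to 1.17 and -0.17 to 0.32 for PTPN22 to PTPN6, and 0.16 to 0.34 and 0.00 to 0.17 for NDFIP1 to ITCH. With upper-quartile scaling, the median log2 fold change of all genes at 5 h against 0 h was -0.08, against 0.00 as reported. Deviations of same-numbered libraries had correlations from -0.143 to 0.163, and those of differently numbered libraries from -0.2 to 0.187. Pairing by number was thus not seen, and 3 libraries a group cannot exclude it. With the replicate block, 5982, 6176 and 4288 genes were called in the 3 comparisons, against 5985, 6146 and 4338 without it, and 8, 6 and 4 of the 10 genes as before. The exact paired sign-flip p of the ratios was 0.25 or more, where 3 pairs allow no less. Depth limits RNF128, which had 1 count in all.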
